A study of Mus musculus with 2 samples.

Results

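The regions described here lie near the distal ends of mouse chromosomes 1 to 19, where H3K9me2 was profiled by chromatin immunoprecipitation and sequencing (ChIP-seq). On each chromosome the end of the last region in the deposited table was taken as the distal edge, and every region whose midpoint lay within 5 Mb of that edge was a member. This gave 1100 distal regions among 23339 regions of chromosomes 1 to 19 and 23946 regions in all. Position chose the members, and no read count was used. The material was MC1-ZE7, 1 line of embryonic stem (ES) cells from strain 129S6/SvEvTac, grown without feeders in medium with serum and leukemia inhibitory factor, and sorted by Emerald fluorescence. One library came from Emerald-negative cells and 1 from the high fraction of Emerald-positive cells, which the series calls Zscan4-negative and Zscan4-positive. As the line is generally described, Emerald reports the activity of a Zscan4 promoter. With 1 library per group there are no replicates, so the groups were compared without a test or p-value.

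H3K9me2 is dimethylation of lysine 9 of histone H3. The enzymes G9a and GLP deposit it, and it lies in broad domains over silent, often lamina-bound chromatin, while active genes tend to lack it. Mouse chromosomes of this set have the centromere next to one end, so the distal end is the one that carries the telomere far from the centromere. The zinc finger genes of the Zscan4 family are active in few ES cells at a given time, and the family is known for a part in telomere lengthening in those cells. The distal edge here is the last listed region and not the chromosome's end, and telomeric repeats were not analysed here. Gene names are not part of the deposited values, and the gene table at hand is on another build than mm9, so each region is named by its mm9 position alone.

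The level of a region is the sum of the deposited signal over 50 bins of 200 bp, a 10 kb window around the region. All values were whole multiples of 1 step, 1.12 in the Emerald-positive library and 0.902 in the Emerald-negative one, so that reads could be counted back. The distal regions held 9022 reads of the Emerald-positive and 10833 reads of the Emerald-negative library, which was 4.18% and 4.07% of the reads on chromosomes 1 to 19. A distal region had a median of 6 reads (quartiles 3 and 11) in the Emerald-positive library and 7 (quartiles 4 and 13) in the Emerald-negative one. At this depth medians of single sets fall on whole reads and move in steps. In 18 distal regions the Emerald-positive library and in 10 the Emerald-negative library had no read, which allows up to 3 reads there. No distal region lacked reads in both. For 305 distal regions (27.7%) the previous region lay closer than 10 kb, so that the windows share reads, against 28.1% of all regions.

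Pooled over chromosomes and summed over the whole window, H3K9me2 was somewhat lower at distal regions than elsewhere, in both libraries. The median level was 6.72 (quartiles 3.36 and 12.32) against 7.84 (4.48 and 13.44) at the 22239 other regions in the Emerald-positive library, a ratio of 0.857. In the Emerald-negative library it was 6.3 (3.6 and 11.7) against 8.1 (4.5 and 13.5), a ratio of 0.778. The distributions overlapped almost entirely: a distal region exceeded another region in 45.8% of pairs in the Emerald-positive library and 45.3% in the Emerald-negative one, with ties split evenly. The ratio of means was 0.881 and 0.858. The ratio of medians was 1.0 in both libraries over the central 10 bins, and 0.833 and 1.0 over the outer 40 bins. With few reads in each part, such medians move by whole reads and can tie. The mean signal per bin was lower at distal regions in both parts. In the central bins it was 0.134 against 0.155 for Emerald-positive and 0.128 against 0.148 for Emerald-negative cells. In the outer bins it was 0.196 against 0.222 and 0.190 against 0.222. These are descriptions of 2 libraries, and regions of 1 library are not replicates.

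The lower pooled level was not a property of every chromosome end. The distal median lay above the rest of the same chromosome in both libraries on 9 chromosomes with 322 members. It lay below in both on 4 chromosomes (4, 6, 10 and 15), which held 379 members, or 34.5% of all. On the other 6 it equalled the rest in at least 1 library. The median over chromosomes of the distal-to-rest ratio was 1.0 in the Emerald-positive library and 1.08 in the Emerald-negative one. The lower pooled median was thus not seen when chromosomes counted equally. The value of 1.08 is that of chromosome 11, 5.85 against 5.4, which lie closer than the step of 0.902. On that chromosome the Emerald-negative ratio of means was 0.850. Without chromosomes 4, 10 and 15, a choice made after seeing the data, both pooled ratios were 1.0. Against the median of the rest of its own chromosome, 567 distal regions were lower, 449 higher and 84 equal in the Emerald-positive library. The Emerald-negative library had 557 lower, 461 higher and 82 equal.

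**Figure D1:**
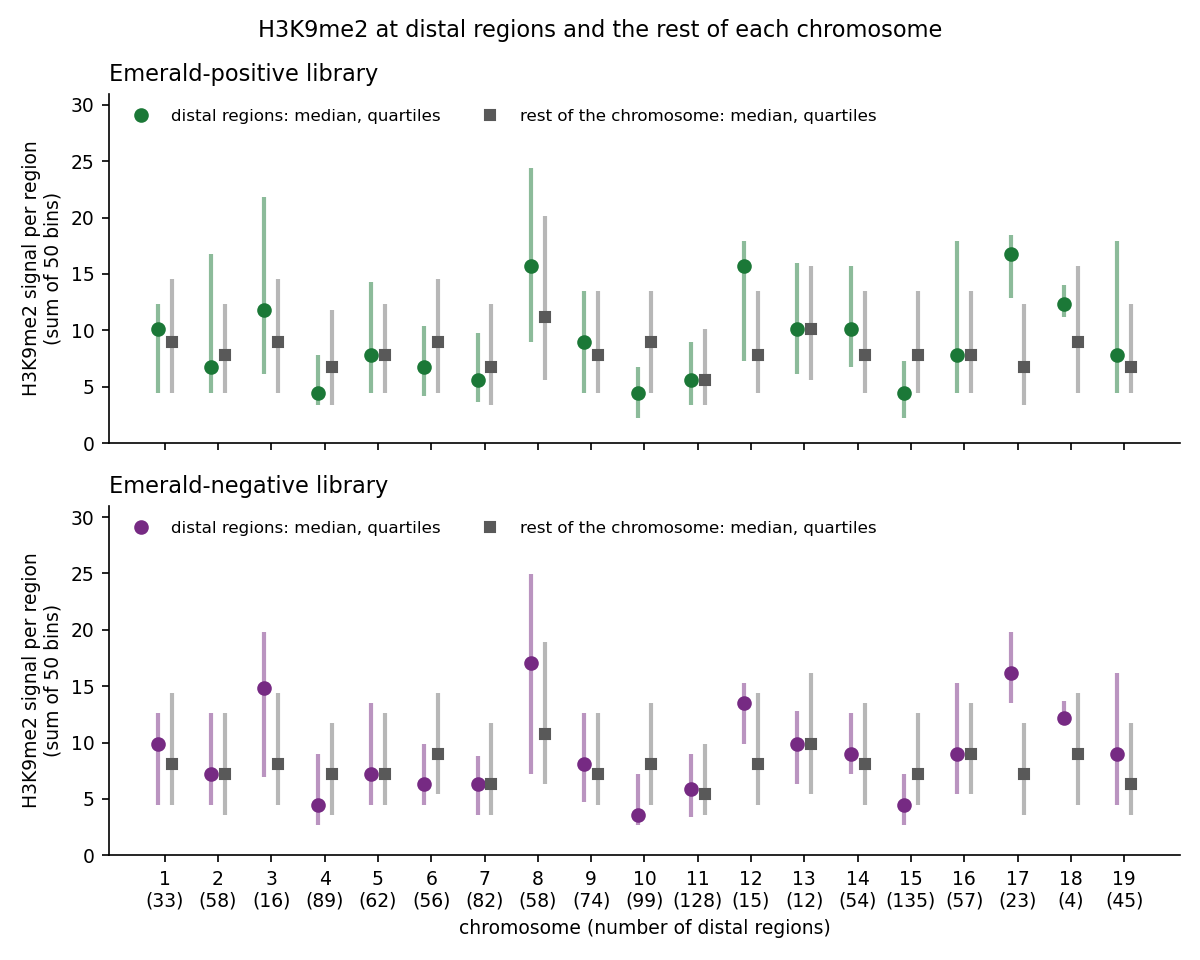
Median H3K9me2 level (sum of 50 bins, y axis) of distal regions (circles) and of the rest of each chromosome (squares) in the Emerald-positive (upper) and Emerald-negative (lower) library, with bars from the lower to the upper quartile over regions and the number of distal regions in parentheses. Chromosomes 4, 10 and 15 have distal medians of 4.5 or less in both libraries, while chromosomes 8, 12 and 17 lie at 13.5 or more.

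Chromosome ends differed from each other more than chromosomes did over the rest of their length. Distal medians ranged from 4.48 to 16.8 in the Emerald-positive library, 3.75-fold, and from 3.6 to 17.1 in the Emerald-negative library, 4.75-fold. The medians of the remaining regions spanned 2.0-fold in both libraries, from 5.60 to 11.2 and from 5.4 to 10.8. The ends kept nearly the same order in both libraries, with Spearman's rho of 0.970 over the 19 chromosomes. The distal sets are smaller than the sets they were compared with, so part of this wider range can come from their size, which was not tested.

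The least marked ends were those of chromosomes 10, 15 and 4. The 99 distal regions of chromosome 10 had a median of 4.48 in the Emerald-positive library against 8.96 over the rest of the chromosome, a ratio of 0.500. In the Emerald-negative library the values were 3.6 and 8.1, a ratio of 0.444. The 135 distal regions of chromosome 15 stood at 4.48 against 7.84 and at 4.5 against 7.2. The 89 of chromosome 4 stood at 4.48 against 6.72 and at 4.5 against 7.2. Chromosome 6, with 56 distal regions, was milder, at 6.72 against 8.96 and 6.3 against 9.0.

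Among the most marked ends were those of chromosomes 17, 8, 12 and 3, whose order differed between the libraries. All 23 distal regions of chromosome 17 had a level of at least 6.72 in the Emerald-positive library and at least 9.0 in the Emerald-negative one. Their median was 16.8 against 6.72 for the rest of the chromosome, 2.5-fold, and 16.2 against 7.2, 2.25-fold. The 58 distal regions of chromosome 8 had medians of 15.7 against 11.2 and 17.1 against 10.8. Their means were 1.02 and 0.975 times the mean of the rest. The medians of the rest of chromosome 8 were themselves the highest of any chromosome of the set. Chromosome 12 had only 15 distal regions, at 15.7 against 7.84 and 13.5 against 8.1. Chromosome 3 had 16 distal regions, at 11.8 against 8.96 and 14.9 against 8.1. On chromosome 18 just 4 regions fell within 5 Mb of the edge, at medians of 12.3 and 12.2.

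The level at an end went with how many regions it held. Over the 19 chromosomes Spearman's rho between the number of distal regions and their median level was -0.808 for Emerald-positive and -0.809 for Emerald-negative cells, and Pearson's r was -0.735 and -0.725. The chromosomes share the same 2 libraries, so this describes these libraries. The 4 ends with the most regions (chromosomes 4, 10, 11 and 15) held 451 members, or 41.0%. Within the distal set, the level fell with the number of other regions within 200 kb, with a rho of -0.447 and -0.465 across regions. A like value was found in the other regions, -0.404 and -0.406. Across distal regions, the rho of level with region width was only -0.056 and -0.076.

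Compared at like density, sparse distal regions had medians at or above those of sparse regions elsewhere, and denser ones lay below. With 0 to 4 other regions within 200 kb, the median was 13.4 at 263 distal and 12.3 at the other regions in the Emerald-positive library, and 12.6 at both in the Emerald-negative library. With 5 to 8 neighbours the values were 7.84 against 8.96 and 7.2 against 8.1. With 9 to 13 they were 4.48 against 6.72 and 5.4 against 6.3. In the densest class, 14 to 34 neighbours, 284 distal regions stood at 4.48 against 5.60 and 4.5 against 5.4. The median number of neighbours was 8 in both sets, and region width was alike, with medians of 1102 bp at distal and 1112 bp at other regions.

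By distance, the regions nearest to the edge had the highest median of the distal set. The 223 regions of the last 1 Mb had a median of 7.84 in the Emerald-positive library and 8.1 in the Emerald-negative one. The 877 regions between 1 and 5 Mb stood at 6.72 and 6.3. In steps of 1 Mb from there the medians were 5.60, 6.72, 5.60 and 6.72 in the Emerald-positive library and 6.3, 7.2, 6.3 and 6.3 in the Emerald-negative library. The quartiles of all steps overlapped. On 11 of 19 chromosomes the last 1 Mb had a higher median than the 4 Mb before it in both libraries, and on 1 it had a lower one in both. The median number of neighbours within 200 kb was 6 in the last 1 Mb, against 8 between 1 and 5 Mb. It was also 6 in the step from 2 to 3 Mb, and next to the edge the count is lowered because no region is listed beyond it. Beyond 5 Mb, the medians were 6.72 and 7.2 from 5 to 10 Mb and 7.84 and 7.2 from 10 to 15 Mb. From 15 to 30 Mb all 3 steps of 5 Mb were at 6.72 and 6.3.

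**Figure D2:**
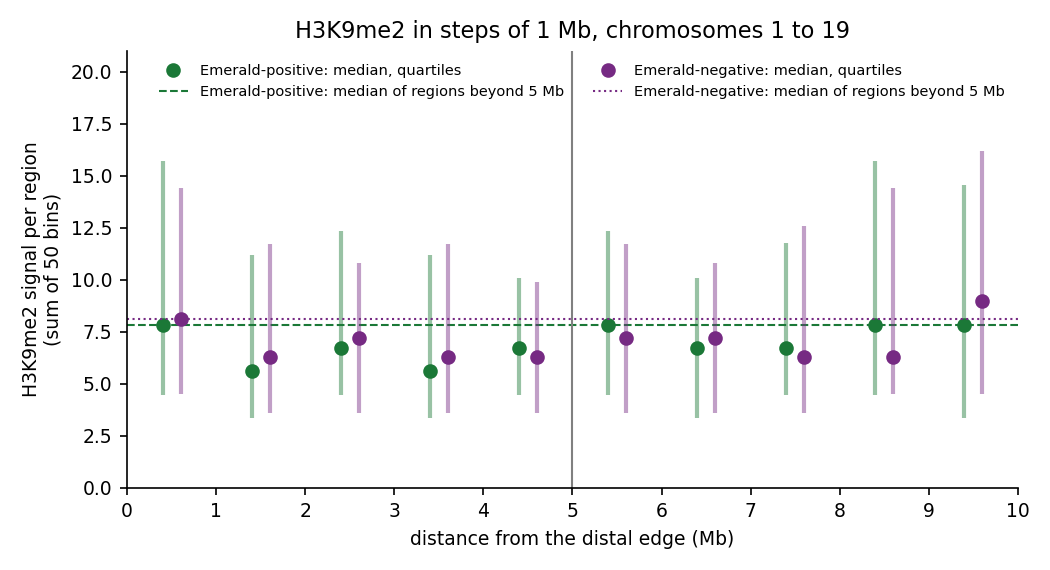
Median H3K9me2 level per region (y axis, sum of 50 bins) in steps of 1 Mb from the distal edge (x axis), pooled over chromosomes 1 to 19, for both libraries, with bars from the lower to the upper quartile and horizontal lines at the medians of all regions beyond 5 Mb. The last 1 Mb lies at those lines (7.84 and 8.1), and the steps from 1 to 5 Mb lie below them at 5.60 to 7.2.

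The single region closest to the edge was usually well marked. Over the 19 chromosomes these regions had a median level of 17.9 (range 0 to 151) in the Emerald-positive and 17.1 (range 2.7 to 124) in the Emerald-negative library. They exceeded the median of the rest of their own chromosome on 14 chromosomes in the Emerald-positive library and 15 in the Emerald-negative one. Without them the last 1 Mb had medians of 7.84 and 7.2. These closest regions had 0 to 7 neighbours within 200 kb, a count lowered by the edge. Sparse regions beyond 5 Mb, with 0 to 4 neighbours, also had high medians, 12.3 and 12.6. A part of the edge apart from sparseness was not tested. The members nearest to the 5 Mb border from inside, 1 per chromosome, lay 1686 to 4996 kb from the edge. Their levels ranged from 4.48 to 29.1 and from 2.7 to 35.1. The nearest regions outside lay at 5024 to 6652 kb. Their levels ranged from 1.12 to 42.6 and from 1.8 to 32.4, and the ranges of level overlapped.

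Within an end, highly and weakly marked stretches lay side by side; those below were picked after their values were seen. On chromosome 10 the last 1 Mb held 5 regions, with 29.1 as the median in the Emerald-positive library (14.6, 16.8, 29.1, 31.4 and 31.4) and 20.7 in the Emerald-negative one (20.7, 11.7, 27.9, 29.7 and 16.2). Proximal to them, 92 regions packed between 126342080 and 128361353 had medians of 4.48 (range 0 to 20.2) and 3.6 (range 0 to 28.8). Their median number of other regions within 200 kb was 23, against 2 for the 5 distal ones, of whose windows 1 overlaps the one before.

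Chromosome 8 held a highly marked stretch. Its 8 regions between 1 and 2 Mb from the edge (129649558 to 130600291) had levels of 20.2 to 41.4 (median 34.7) in the Emerald-positive library. In the Emerald-negative library they ranged from 22.5 to 35.1 (median 32.4), and no window overlapped its neighbour. Chromosome 8 was also high outside its distal end, with medians of 11.2 and 10.8. No input was used here, so on this chromosome the mark cannot be told apart from extra copies. On chromosome 3, 5 regions from 156753104 to 157368180 had medians of 25.8 and 27.9. The 6 regions that followed distally, from 157583757 to 157700242, had medians of 4.48 and 5.4. The ranges of these neighbouring stretches did not overlap in either library, 13.4 to 30.2 against 2.24 to 8.96 and 13.5 to 30.6 against 0 to 9.0.

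Chromosome 15 showed a narrow exception inside a weakly marked end. Over 25 kb, 4 regions (98759415 to 98784783) had levels of 26.9 to 37.0 in the Emerald-positive and 30.6 to 40.6 in the Emerald-negative library. Of their windows 2 overlap the one before and share reads with it. The other 42 regions at 4 to 5 Mb from that edge had medians of 4.48 (range 0 to 11.2) and 3.6 (range 0.90 to 11.7). No input was used here, so at such isolated high regions the mark cannot be told apart from extra copies or from how reads map.

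**Figure D3:**
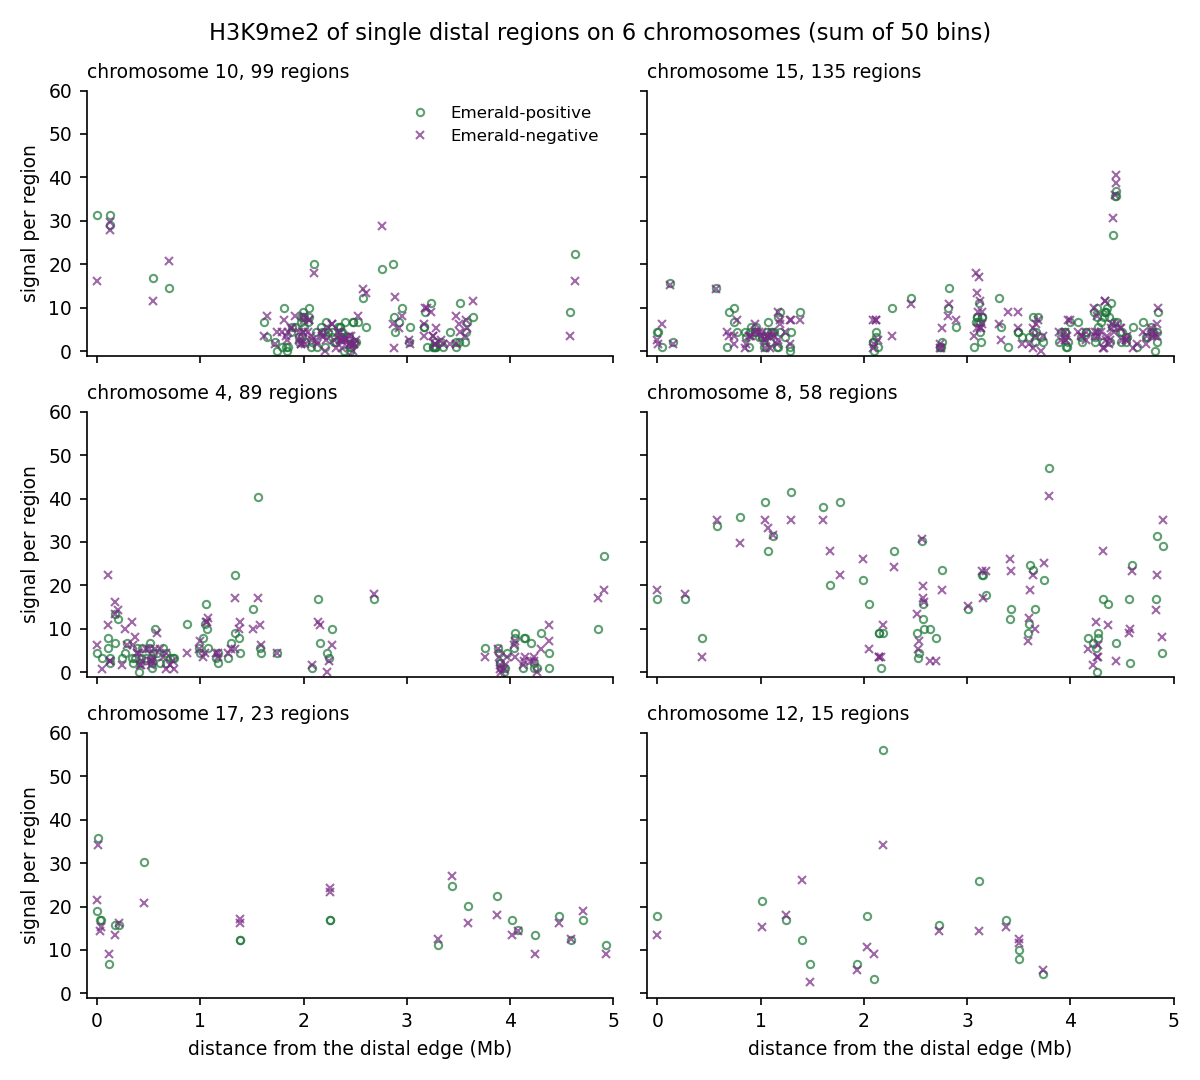
H3K9me2 level (y axis, sum of 50 bins) of each distal region against its distance from the distal edge in Mb (x axis) on the 3 least marked and 3 of the most marked ends, for the Emerald-positive (circles) and Emerald-negative (crosses) library. On chromosome 10 the 5 regions of the last 1 Mb lie between 11.7 and 31.4, the 92 packed regions proximal to them have medians of 4.48 and 3.6, and chromosome 17 has no region below 6.72.

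The distal region with the most reads was also the last region of its chromosome. It lay on chromosome 2 (181653284 to 181653498) and had 135 reads in the Emerald-positive library and 138 in the Emerald-negative one, a scaled ratio of 1.22 (95% counting interval 0.952 to 1.55). No other distal region had over 100 reads, against 124 of the other regions. Its reads were one-sided. At negative offsets from the window centre 107 and 106 of them fell within 2000 bp. At positive offsets 15 and 23 fell within 2000 bp, and none from 2000 to 5000 bp. The deposited columns give no strand, so whether positive offsets point distally is not known. A gap of the assembly, unmappable sequence and an end of the mark cannot be told apart from these values. The 19 regions of the last 1 Mb of chromosome 2, this one included, had medians of only 4.48 and 4.5.

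The next most-read distal regions carried 76 to 88 reads. The second, on chromosome 12 (118830902 to 118831676), had 50 and 38 reads, 1.64-fold (interval 1.05 to 2.56). Chromosome 8 held the third (127851825 to 127852039), with 42 and 45 reads or 1.16-fold (0.743 to 1.81). One on chromosome 15 (98759415 to 98760194), in the cluster just described, had 33 and 45 reads, or 0.911 (0.563 to 1.46). Another on chromosome 8 (130346962 to 130348203) had 37 and 39 reads, or 1.18-fold (0.731 to 1.90). The counting intervals of all but the region on chromosome 12 held equality.

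Between Emerald-positive and Emerald-negative cells, distal H3K9me2 was nearly equal on the scaling of the authors. Pooled over the 1100 distal regions the log2 ratio was 0.049 (95% counting interval 0.0089 to 0.090), or 1.03-fold. The other regions had 0.011 (0.0026 to 0.019). The difference was 0.038 (-0.0028 to 0.080), an interval that held 0. Over regions at least 10 kb apart the difference was 0.048 (0.00085 to 0.094), an interval that did not hold 0. These intervals cover counting error and not differences between sorts or precipitations. Since overlapping windows share reads, the intervals over all regions are too narrow. The median log2 ratio per region, with 1.8 added to both levels, was -0.0046 (quartiles -0.37 and 0.44) over 1072 distal regions with a read in both libraries, against 0.0097 (-0.39 and 0.42) over all regions of chromosomes 1 to 19.

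At least 2-fold higher levels in Emerald-positive cells were found at 65 distal regions, 6.06% of those with a read in both libraries, beside 5.39% over all of chromosomes 1 to 19. At least 2-fold lower levels were found at 60, or 5.60%, beside 5.46%. Against the common ratio, the counting interval was higher at 20 distal regions (1.82%, beside 1.86% over all) and lower at 18 (1.64%, beside 1.55%). The shares were near the background in both directions. The libraries were correlated across distal regions, with a Pearson's r of 0.730 on log2(reads + 1) and a Spearman's rho of 0.745, against 0.744 and 0.767 over the other regions. Regions of the same 2 libraries are not independent.

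**Figure D4:**
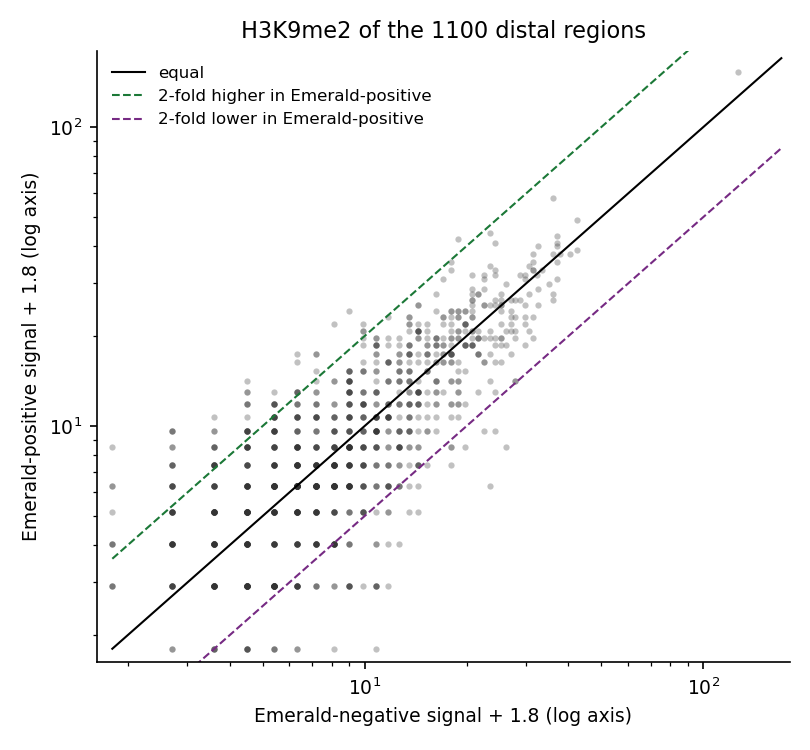
H3K9me2 level of the 1100 distal regions in the Emerald-positive (y axis) against the Emerald-negative library (x axis), both with 1.8 added and on log axes; the solid line marks equality and the dashed lines 2-fold differences. Points lie on a grid at low levels because they hold few whole reads, and 41 of the 65 and 39 of the 60 regions beyond 2-fold have fewer than 13 reads over both libraries.

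No chromosome end stood apart between the libraries. For each of the 19 ends the counting interval of the pooled log2 ratio held the common ratio of chromosomes 1 to 19, which was 0.013. The values ranged from -0.046 (-0.63 to 0.53) on chromosome 18, from 46 and 59 reads, to 0.20 (-0.078 to 0.47) on chromosome 12. At the weakly marked end of chromosome 10 the value was 0.073 (-0.095 to 0.24), and on chromosome 15 it was -0.022 (-0.17 to 0.12). At the marked ends it was 0.0093 (-0.20 to 0.21) on chromosome 17 and 0.035 (-0.093 to 0.16) on chromosome 8. By distance the pooled values were 0.073 (-0.0086 to 0.16) in the last 1 Mb and -0.021, 0.12, -0.047 and 0.095 in the following steps. The step from 2 to 3 Mb, at 0.12 (0.031 to 0.22), was the only one of the 5 whose interval lay above the common ratio. It held 10 of the 20 distal regions whose own interval lay above that ratio. This was 4.67% of its 214 regions, beside 1.86% over all of chromosomes 1 to 19. It held 1 of the 18 below that ratio, or 0.47%, beside 1.55%. The step was singled out after its value was seen. The other steps had 2 to 4 above and 3 to 6 below, and the difference between steps was not tested.

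The regions with the highest ratios, ranked by the log2 ratio with 1.8 added among distal regions with at least 13 reads, held few reads. The ratios printed here are without the added value, so their order can differ. The first by that rank, on chromosome 13 (120197338 to 120198689), had 11 reads in the Emerald-positive library and 3 in the Emerald-negative one, 4.56-fold (interval 1.20 to 25.4). Regions on chromosome 9 (120870528 to 120872261) and chromosome 11 (117205939 to 117207687) each had 10 against 3, or 4.14-fold (1.07 to 23.4). One on chromosome 19 (60936612 to 60938449) had 14 against 5, or 3.48-fold (1.18 to 12.3). The fifth by that rank, on chromosome 10 (127113071 to 127114905), had 18 against 7, or 3.19-fold (1.27 to 9.05). A region on chromosome 11 (119757902 to 119759380), outside the 5 by that rank and named after its value was seen, had 13 against 5, or 3.23-fold (1.08 to 11.6).

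The lowest ratios, ranked the same way, were of the same kind. First by that rank, a region on chromosome 16 (93911100 to 93911612), at a log2 ratio of -1.90 with 1.8 added, came from 4 reads in the Emerald-positive library and 24 in the Emerald-negative one, a ratio of 0.207 (0.0522 to 0.603). On chromosome 2 (181026472 to 181027919) the reads were 6 and 27, a ratio of 0.276 (0.0932 to 0.683). The others, on chromosome 11 (119492421 to 119493055), chromosome 8 (127058899 to 127060388) and chromosome 19 (57731760 to 57732432), had 2 against 12, 2 against 11 and 3 against 14 reads. Without the added value the first of these had the same ratio as the region on chromosome 16, 0.207 (0.0225 to 0.930). The interval of the one on chromosome 8, 0.0243 to 1.04, held equality. The last 1 Mb, with 223 of the 1100 distal regions, held 3 of the 10 regions ranked highest or lowest, on chromosomes 2, 13 and 19.

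Distal regions shared the central depletion of H3K9me2 seen over the whole set. In the central 10 bins the signal per bin averaged 0.134 in the Emerald-positive library and 0.128 in the Emerald-negative one, and in the outer 40 bins 0.196 and 0.190. Centre over flank, this gave 0.683 (counting interval 0.644 to 0.724) and 0.671 (0.636 to 0.708), against 0.695 and 0.666 at the other regions. On the log2 scale distal and other regions differed by -0.026 (-0.11 to 0.061) and 0.012 (-0.068 to 0.091), and both intervals held 0. The difference between the libraries in central depletion at distal regions, 0.026 (-0.089 to 0.14), was not distinguishable from 0 at this depth.

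One region moved the mean profile of the distal set. Without the most-read region on chromosome 2 the centre-to-flank ratios were 0.650 (0.612 to 0.690) and 0.639 (0.605 to 0.675). In the last 1 Mb alone they were 0.854 and 0.821 with it and 0.717 (0.637 to 0.808) and 0.686 (0.614 to 0.767) without it. Chromosome 2 was the only end whose ratios, 1.17 and 1.45, exceeded 1, and these ratios include that same region. It had 74 and 83 reads in the central 10 bins and 61 and 55 in the outer 40. The ratios of that end without it are not given here. Chromosome 4 had the deepest depletion in both libraries at 0.495 and 0.387.

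**Figure D5:**
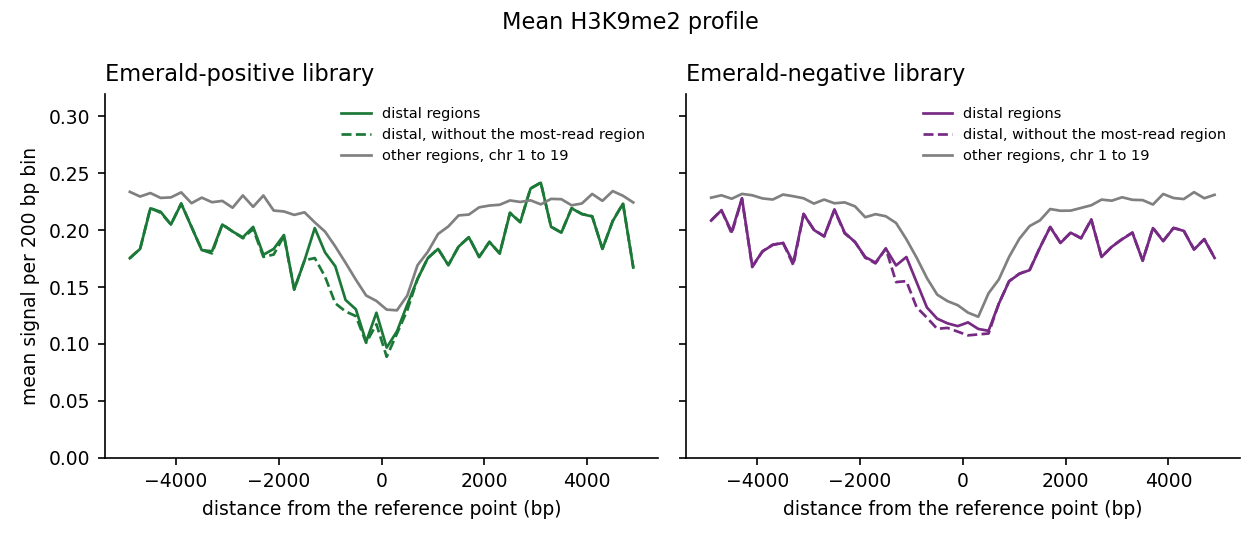
Mean H3K9me2 signal per 200 bp bin (y axis) by distance from the reference point of the region in bp (x axis) in each library, for distal regions with and without the most-read region of chromosome 2 and for the other regions of chromosomes 1 to 19. Both sets dip at the centre, the distal curve lies lower on average (0.196 against 0.222 per outer bin in the Emerald-positive library), and the single region adds signal mainly between -2000 and 0 bp.

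The opposite, centromeric ends carried more of the mark. The 1124 regions within 5 Mb of the first region of each chromosome had medians of 8.96 and 9.0, so distal regions stood at 0.750 and 0.700 of them. This was not particular to the first 5 Mb. The medians were 11.2 and 10.8 from 5 to 10 Mb, and 11.2 and 11.7 from 10 to 15 Mb. The means differed more, 9.19 against 13.8 and 8.86 against 13.3, where 17 of the centromeric regions had over 100 reads and 1 distal region did. Without input, the mark at such regions cannot be told apart from extra copies or from how reads map. Over summed reads the central depletion was also shallower there, with ratios of 0.904 (0.866 to 0.944) and 0.884 (0.850 to 0.920). These sums include the 17 regions with over 100 reads, and ratios without them are not given here. Whether the other centromeric regions differ in shape was not tested. The pooled log2 ratio of the centromeric regions between the libraries was 0.052 (0.020 to 0.085), beside 0.049 at the distal ends.

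Distal regions were unevenly placed in the order of the deposited table. The sources used here do not give the meaning of that order. They made up 7.59% of the last twentieth of the table (90 of 1185 regions on chromosomes 1 to 19), against 4.71% of all and 2.93% to 6.14% of the other twentieths. Chromosome 11 gave 20 of these 90, chromosome 9 gave 11 and chromosome 15 gave 10. Their median levels were 8.96 and 7.2, against 10.1 and 9.9 for the other regions of that twentieth. In the first twentieth the distal share was 4.25%.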

How the data were processed

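H3K9me2 ChIP-seq signal of 1 Emerald-negative and 1 Emerald-positive library was used. Per the labels' protocols, sorted cells were fixed with formaldehyde, and the chromatin was sonicated and precipitated with an antibody to H3K9me2. A second experiment used another size selection, and the labels do not say which the libraries come from. The deposited values are signal per bin, scaled by the authors with 1 constant per library. The submitters' processing notes name mm9. Not given in the sources used here are the aligner, duplicate treatment, scaling total and how the regions were chosen. No input was used here, and a uniform gain or loss of the mark would be invisible.

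Signal divided by its step gave whole reads for 100% of values (tolerance 0.02). Levels are sums of deposited signal; pooled ratios use reads times the step. The pseudocount of 1.8 was the 5th percentile of nonzero sums. Intervals are exact 95% binomial (Clopper-Pearson), or normal on the log scale for ratios of ratios. Both cover counting error only, and the binomial ones were tested on simulated data. Named regions followed a rule: the 5 with the most reads, the 5 highest and 5 lowest log2 ratios (pseudocount added) at or above the distal median of reads, and the region nearest to each edge and border. The members, lists and rules were chosen with earlier results of these data known. Computation used scipy 1.17.1, numpy 2.4.6 and pandas 2.3.3 under Python 3.11.15, and plots matplotlib 3.10.9.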

Additional observations from a re-analysis of the deposited data

How the results depend on the processing

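The ratio of distal to other medians (0.857 for Emerald-positive, 0.778 for Emerald-negative cells) was 1.0 and 1.08 as a median over chromosomes and 1.0 in both without chromosomes 4, 10 and 15, an alternative added after seeing the data. It was 0.881 in the Emerald-positive library for means and 0.875 for regions at least 10 kb apart. Above the lower quartile of signal it was 0.944 and 0.909. In the central 10 bins it was 1.0 in both libraries and in the outer 40 bins 0.833 and 1.0. By density, from sparse to dense, it was 1.09, 0.875, 0.667 and 0.800 in the Emerald-positive library and 1.0 in the sparsest class of the Emerald-negative one. In the narrowest regions (up to 629 bp) it was 1.0 in the Emerald-negative library, and in the widest quartile 0.714 in the Emerald-positive one. Leaving out 1 chromosome at a time gave 0.857 in every case in the Emerald-positive library and 0.778 to 0.889 in the Emerald-negative one. Medians move by whole reads, and the cause of these shifts was not tested.

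Counts of distal regions past 2-fold upward and downward (65 and 60) were 32 and 30 within 2.5 Mb, 138 and 123 within 10 Mb, 43 and 37 without chromosomes 4, 10 and 15, and 18 and 19 above the lower quartile, where fewer or more regions entered. In the central bins they were 39 and 30. With the pseudocount at the 1st percentile 95 were higher and 102 lower, and at the 25th 19 and 23. Leaving out a chromosome gave 55 to 65 and 52 to 60. Shares over all regions of chromosomes 1 to 19 under these settings are not given here. The changes in these counts therefore cannot be read as particular to distal regions. The median log2 ratio was 0.17 in the central bins and -0.013 after division by each library's total; leaving out a chromosome gave -0.0046 to 0.0097. The pooled log2 ratio stayed above 0 under all alternatives run, from 0.044 to 0.056 when a chromosome was left out and from 0.020 within 10 Mb to 0.072 in the central bins. Centre-to-flank ratios were 0.779 and 0.713 within 2.5 Mb. By region width, the narrowest quartile gave 0.823 in the Emerald-positive library, the third quartile 0.725 in the Emerald-negative one, and the widest 0.532 and 0.635. Leaving out a chromosome gave 0.650 to 0.695 and 0.624 to 0.689. The region on chromosome 16 (93911100 to 93911612) went from a log2 ratio of -1.90 to 0.22 when only central bins were used. No paired analysis was possible because there is 1 library per group. With medians of 6 and 7 reads, most 2-fold differences at single regions lie within counting error.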

Other observations

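Chromosome X, which the set leaves out, had 19 regions within 5 Mb of its distal edge. Their median level was 6.72 in the Emerald-positive library and 9.9 in the Emerald-negative one, above the 4.48 and 4.5 of the other 584 regions of X. The pooled log2 ratio between the libraries was -0.028 (counting interval -0.19 to 0.13) at these 19 regions, from 550 and 697 reads. The reads were unevenly spread, as the median level is far below an even share of them. The pooled value thus mostly describes the regions with the most reads.

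Levels of neighbouring distal regions were weakly correlated. For log2(reads + 1), Pearson's r was 0.328 over the 1297 distal pairs with 10 to 50 kb between them and 0.146 over the 13041 pairs with 200 to 1000 kb. The other regions had 0.394 and 0.211. Pairs share regions and are not independent.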
